A study of Mus musculus with 40 samples.

Results

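Messenger RNA of mouse embryonic stem cells (mESCs) that lack Cyclin C was compared with that of WT mESCs, both kept for 4 h in DMSO, the solvent of the ATR inhibitor (ATRi) AZD6738 that the study set beside it at 900 nM. The comparison holds 5 of the 20 libraries of the series, or 10 of its 40 lane samples: WT replicates 1 and 2 and the *Ccnc* KO clones named D1, G2 and H5. They were taken by genotype and treatment from the count table of the multiplex, a set of libraries sequenced together, that held *Ccnc* KO and WT cells, and the 2 lanes of each library were summed. The series also holds the same cells under ATRi and 3 *Cdk8* KO clones with both treatments. The question was which transcripts differ in cells without Cyclin C before any ATRi is given. All cells were grown on gelatin with serum and LIF, the cytokine that keeps mESCs undifferentiated. Each *Ccnc* KO library is 1 clone, grown from a single Cas9-expressing cell after transfection with a synthetic guide RNA and picked by immunoblot, so that clones may differ from WT by more than the edit, whereas the WT replicates are not described as clones.

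Cyclin C, encoded by *Ccnc*, is the partner of the kinases CDK8 and CDK19. With MED12 and MED13, or their paralogues MED12L and MED13L, they form the kinase module of Mediator, the complex that carries signals from enhancer-bound transcription factors to RNA polymerase II. The module binds Mediator reversibly and is known to repress some genes and to be needed for the induction of others, among them immediate early genes and targets of Wnt signalling. mESCs resemble the epiblast of the early embryo, and cultures of them hold a few cells that have moved towards primitive endoderm, the lineage that forms the yolk sac.

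The guide listed for *Ccnc* is shown because it marks where the gene was cut. Its target lies on the antisense strand of the gene, in coding sequence, at chr4:21743295-21743314 of GRCm38, within exon 9 of 12 of the transcript Ccnc-202. Of 8 annotated transcripts of the gene, 6 hold the site. It is printed 5′ to 3′ with the PAM, the bases that Cas9 needs beside its target, in capitals.
Ccnc guide target: ctaaagcgatcatgaacggaGGG

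The libraries held from 33540088 to 48651569 counts. Of the 55536 genes in the table, 27678 had 0 counts in these 5 libraries and 17067 passed the expression filter and were tested, holding at least 99.9% of the counts of each library. Levels are given as CPM, counts scaled to a fixed library total after TMM normalization, in the order D1, G2 and H5 and then WT 1 and WT 2, and log2 fold changes are *Ccnc* KO over WT, ± 1 standard error of the fit. With 2 WT libraries, the spread between WT cells rests on 1 difference, and the median of the absolute log2 difference between libraries was 0.140 for the WT pair and between 0.138 and 0.178 for the pairs of clones. The 6 markers of mESCs summed to between 3351 and 3813 CPM in *Ccnc* KO and between 3664 and 3995 CPM in WT, with none called by edgeR and 1, *Zfp42*, by DESeq2. The fibroblast or feeder markers summed to between 9.01 and 13.2 CPM in *Ccnc* KO and between 6.84 and 6.99 CPM in WT, with none of the 4 tested of 6 called by edgeR, *Thy1* called by DESeq2 (adjusted p = 0.0251) and *Col3a1* and *Postn* at 0 in WT.

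*Ccnc* itself was the called gene with the smallest adjusted p-value. It stood at 6.22, 7.53 and 5.03 CPM in the clones and at 44.2 and 43.8 CPM in WT, so that every clone lay far below both WT libraries. The log2 fold change was -2.82 ± 0.15 (adjusted p = 4.7e-05, from edgeR's quasi-likelihood fit, adjusted after Benjamini and Hochberg, as for every adjusted p-value here). The residual reads show that the transcript was not lost, and poly(A) counts do not tell whether it encodes a protein. *Med13l*, one of the paralogues that link the module to Mediator, was also lower, at 72.9, 62.3 and 76.6 CPM against 92.2 and 115 CPM (log2 fold change -0.55 ± 0.11, adjusted p = 0.0307). Without WT replicate 1 or 2 the adjusted p of *Med13l* was 0.0624 or 0.280. The kinase gene *Cdk8* lay at 68.5, 65.4 and 67.4 CPM against 76.2 and 72.6 CPM, a log2 fold change of -0.15 that did not pass the test (adjusted p = 0.301). The other module genes, *Cdk19*, *Med12*, *Med13* and *Med12l*, had log2 fold changes of -0.19, -0.18, -0.10 and 0.31 and did not pass it. None of the 26 core Mediator subunits and none of the 15 other transcriptional CDKs and cyclins tested was called, with medians of 0.03 and -0.05 beside 0.01 over all tested genes. At an unadjusted p-value under 0.05 there was 1 gene in the first list and 2 in the second, and DESeq2 called 1 and 0.

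Across all tested genes, 357 were higher in *Ccnc* KO (2.09% of those tested) and 278 were lower (1.63%) at an adjusted p-value under 0.05, or 3.72% together. Of these, 136 rose more than 2-fold (0.797%) and 35 fell more than 2-fold (0.205%). No clone overlapped a WT library for any of the 635 called genes, but the same held for 19.2% of the tested genes in the upward and 18.4% in the downward direction, so that separation alone says little with 3 libraries against 2. The largest changes were mostly upward: the log2 fold change exceeded 2 for 51 called genes that rose and 6 that fell, and 3 for 18 that rose and 0 that fell. Many genes that rose were near silent in WT cells. The median WT level was 0.928 CPM for the 136 genes raised more than 2-fold, 4.48 CPM for the 35 lowered more than 2-fold and 12.5 CPM for all tested genes. The calls rest on the WT libraries: without WT replicate 1 the counts fell to 29 raised and 36 lowered, and without WT replicate 2 to 47 and 31, fits in which the lone WT library was assumed to vary like the clones. Without clone G2 they fell to 124 and 65, and without H5 they rose to 661 and 453.

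**Figure D1:**
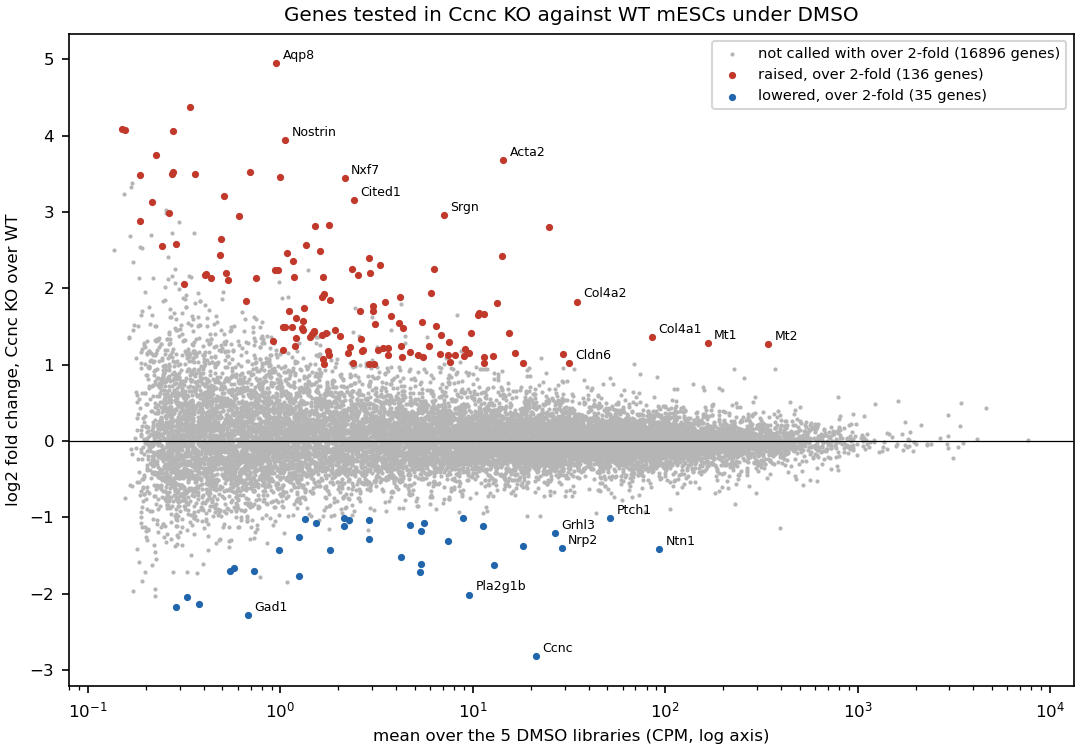
Each point is 1 of the 17067 tested genes, by its mean over the 5 DMSO libraries (CPM, log axis) and its log2 fold change, *Ccnc* KO over WT. The 136 genes raised more than 2-fold (red) reach a log2 fold change of 4.95 and lie mostly at low levels, and *Ccnc* is the lowest of the 35 lowered more than 2-fold (blue).

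Of the 87 genes picked by the rule given with the methods, 81 were called, and 20 of them were called under each alternative that tested them, including without either WT replicate. These were *Ccnc*, the transcriptional regulators *Egr1*, *Sp5*, *Pax6*, *Grhl3* and *Cited1*, the Hedgehog receptor *Ptch1*, the guidance genes *Ntn1* and *Nrp2*, the type IV collagen *Col4a2*, the endocytic adaptor *Dab2*, the actin *Acta2*, the keratin *Krt19*, and *Plac8*, *Srgn*, *Nostrin*, *Glipr1*, *Nxf7*, *Gna14* and *Rpl39l*. Without WT replicate 1 and without WT replicate 2, 23 and 28 of the 81 kept their call. The remaining genes are therefore given with the adjusted p-values that these fits left.

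The genes with the largest upward changes spanned secreted, channel and contractile products. *Acta2*, smooth muscle actin, stood at 17.5, 16 and 34.9 CPM in the clones and 1.68 and 1.91 CPM in WT (log2 fold change 3.68 ± 0.36, adjusted p = 0.00149), highest in H5. *Srgn*, which encodes the proteoglycan serglycin, stood at 10.2, 14.8 and 7.73 CPM against 1.39 and 1.39 CPM (2.96 ± 0.28, adjusted p = 0.00149). The transcriptional co-activator *Cited1* stood at 3.03, 5.08 and 3.13 CPM against 0.261 and 0.594 CPM (3.15 ± 0.38, adjusted p = 0.00314). All 3 were clear of both WT libraries in every clone. *Nxf7*, of the mRNA export factor family, stood at 2.88, 4.53 and 2.79 CPM against 0.261 and 0.361 CPM, and *Slco2a1*, the prostaglandin transporter, at 1.35, 2.39 and 3.17 CPM against 0.348 and 0.31 CPM, with log2 fold changes of 3.45 and 2.81. *Slco2a1* was no longer called without WT replicate 1 (adjusted p = 0.0844) or 2 (0.0923). *Aqp8*, a water channel, had 3 and 1 counts in the WT libraries, or 0.0653 and 0.0258 CPM, and 0.931, 3.08 and 0.672 CPM in the clones, with G2 the highest. Its fitted log2 fold change of 4.95 depends on the prior count, and its adjusted p of 0.0219 became 0.151 and 0.197 without WT replicates 1 and 2. *Nostrin*, which binds endothelial nitric oxide synthase, had 3 and 6 counts in WT and stood at 1.8, 1.98 and 1.3 CPM in the clones (adjusted p = 0.00207), and *Glipr1*, with 9 and 3 counts in WT, at 1.2, 1.7 and 1.81 CPM (adjusted p = 0.00342).

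Downward changes were smaller. *Gad1*, the enzyme that makes the neurotransmitter GABA, stood at 0.18, 0.33 and 0.285 CPM in the clones and 1.5 and 1.11 CPM in WT (log2 fold change -2.28 ± 0.35, adjusted p = 0.0101, or 0.109 without WT replicate 1). *Pla2g1b*, a secreted phospholipase, stood at 6.07, 3.82 and 3.2 CPM against 23.8 and 11 CPM (-2.01 ± 0.32), with the WT libraries themselves more than 2-fold apart and an adjusted p of 0.105 without WT replicate 1. *Frem2*, an extracellular matrix protein, stood at 2.79, 1.65 and 3.81 CPM against 7.27 and 11.1 CPM (-1.72 ± 0.29, adjusted p = 0.0151, or 0.163 without WT replicate 2). The G protein subunit gene *Gna14* fell from 21.3 and 21.9 CPM in WT to 9.04, 4.95 and 7.0 CPM in the clones (-1.63 ± 0.20, adjusted p = 0.00305), and the ribosomal protein paralogue *Rpl39l* from 7.38 and 6.58 CPM to 2.16, 2.83 and 2.28 CPM (-1.53 ± 0.17, adjusted p = 0.00238). Neither depended on 1 library. The less known transcripts *Gm32885*, *4930524B15Rik* and *Gm13889* had log2 fold changes of -1.77, -1.71 and -1.43, adjusted p-values between 0.031 and 0.048, and without WT replicate 1 adjusted p-values of 0.389, 0.206 and 0.131. *Gm13889* overlaps *Gm27027* on the same strand, so that its reads could be shared.

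**Figure D2:**
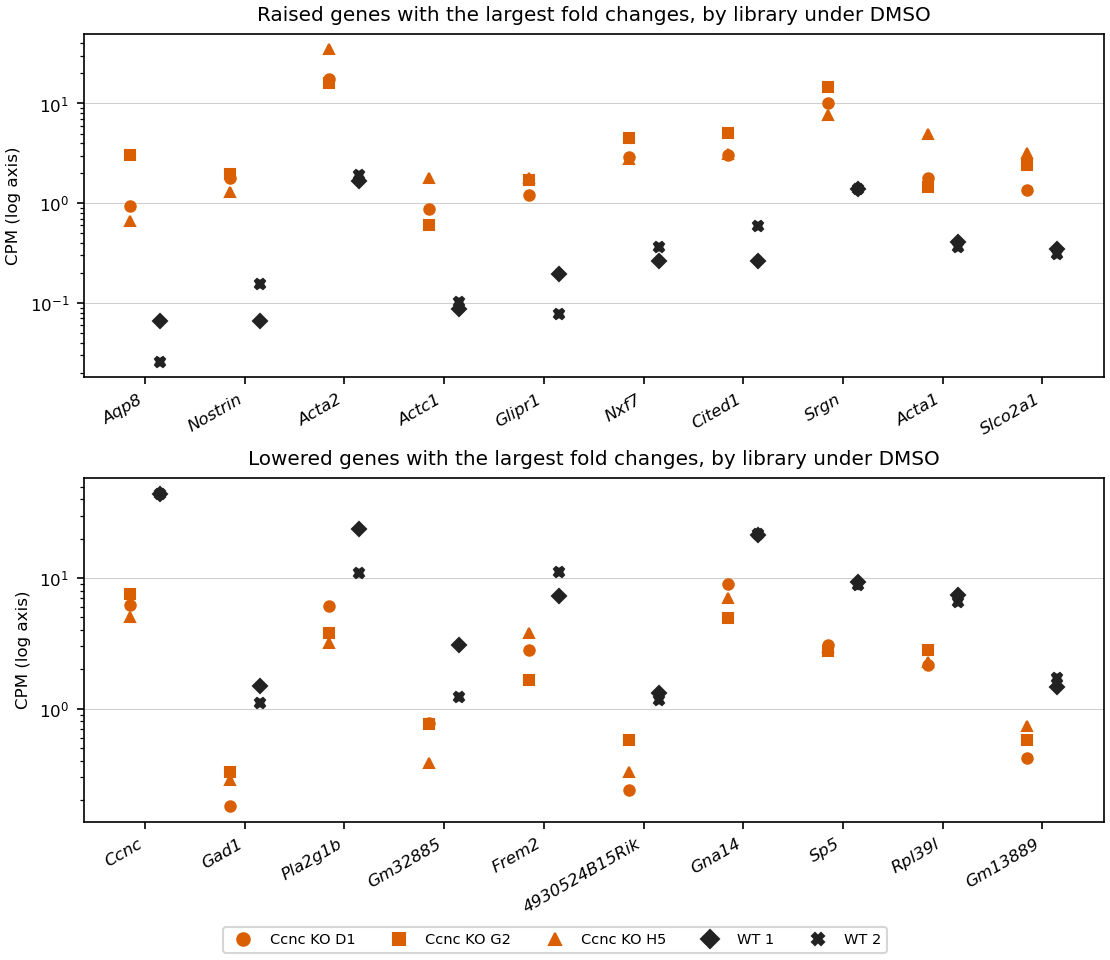
Level of each of the 10 raised (top) and 10 lowered (bottom) genes with the largest changes in each of the 5 DMSO libraries (CPM, log axis), clones in orange and WT in black. Every clone lies on one side of both WT libraries, and H5 stands highest for the actin genes *Acta2*, *Actc1* and *Acta1*.

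Primitive endoderm is specified by GATA6 and GATA4, which act upstream of SOX17 and SOX7, and its cells take up nutrients through endocytic receptors and lay down a thick basement membrane. Of 14 listed transcription factors of this lineage 13 were tested, and 9 rose and 0 fell, with a median log2 fold change of 1.42. This list and the others in the report were written with earlier results of these data known. Their counts and medians are therefore descriptions and not independent evidence for a lineage. *Gata6* stood at 8.2, 8.57 and 7.98 CPM in the clones and 3.5 and 4.95 CPM in WT (log2 fold change 0.97 ± 0.17, adjusted p = 0.0187). *Gata4* stood at 6.31, 8.14 and 6.45 CPM against 2.68 and 3.82 CPM (1.105 ± 0.20, adjusted p = 0.0196), and *Sox7* at 3.63, 5.36 and 3.77 CPM against 0.805 and 1.06 CPM (2.19 ± 0.26, adjusted p = 0.003). The 3 clones lay above both WT libraries for all 3 genes, with G2 the highest, and were closer to each other for *Gata6* than for *Sox7*. *Cited1*, *Foxq1*, *Hnf4a*, *Tfec* and *Eomes* also rose, with log2 fold changes of 3.15, 2.25, 1.84, 2.24 and 0.97. *Sox17* had a log2 fold change of 1.42 that did not pass the test (adjusted p = 0.0735, or 0.0153 by DESeq2), and *Foxa1*, *Foxa2* and *Hhex* were not called. Of the 9 calls, 1 was kept without WT replicate 1 and 4 without WT replicate 2, and the adjusted p-values of the lost ones lay between 0.0554 and 0.294. Levels of the listed factors summed to 41.6, 50.4 and 37.1 CPM against 12.8 and 19.5 CPM, so that the transcripts were rare in both genotypes. The 5 primitive endoderm markers summed to between 23.4 and 29.8 CPM in *Ccnc* KO and between 10.1 and 14.1 CPM in WT. In RNA from whole cultures, more cells of a type and more RNA per cell cannot be told apart.

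Genes that endoderm cells use for uptake and transport were higher too. Of 30 listed receptors, enzymes and secreted proteins 23 were tested, and 10 rose and 0 fell. The median log2 fold change was 1.47, and 0.69 over the members with a mean of at least 1 CPM. *Aqp8*, *Habp2* and *Stra6* were among the members that lay near 0 in WT and passed the expression filter through the clones. *Dab2*, the adaptor that carries cubilin and megalin into the cell, stood at 40.6, 49.99 and 22.7 CPM in the clones and 4.83 and 6.04 CPM in WT (log2 fold change 2.80 ± 0.30, adjusted p = 0.00186). The receptor gene *Cubn* stood at 21.4, 26.3 and 15.5 CPM against 3.0 and 4.9 CPM (2.42 ± 0.26, adjusted p = 0.00186). *Amn*, which brings cubilin to the cell surface, stood at 4.63, 7.12 and 5.11 CPM against 1.94 and 1.91 CPM (1.54 ± 0.22, adjusted p = 0.00807, or 0.0844 and 0.0848 without WT replicates 1 and 2). H5 was the lowest clone for *Dab2* and *Cubn*, and still well above WT. *Lrp2*, which encodes megalin, was not called (log2 fold change 0.16, adjusted p = 0.405). *Pth1r*, the parathyroid hormone receptor of parietal endoderm, stood at 4.36, 4.4 and 3.87 CPM against 1.46 and 1.11 CPM (1.70 ± 0.21, adjusted p = 0.00342). The listed genes *Plet1* (2.18), the iron exporter gene *Slc40a1* (1.47), the protease gene *Ctsh* (2.15), *Srgn* and *Aqp8* rose too. *Habp2* rose from 3 and 1 counts in WT to 0.451, 0.852 and 0.407 CPM in the clones (adjusted p = 0.0224). *Pdgfra*, the growth factor receptor by which primitive endoderm is sorted, stood at 3.97, 4.89 and 3.79 CPM against 2.37 and 3.17 CPM and did not pass the test (log2 fold change 0.61 ± 0.20, adjusted p = 0.142). *Stra6*, at 0.36, 0.467 and 0.407 CPM against 0 and 0.129 CPM, and *Ihh*, at 0.961, 1.4 and 0.692 CPM against 0.283 and 0.387 CPM, were not called (adjusted p = 0.0837 and 0.0641, with *Ihh* at 0.0496 by DESeq2). The late yolk sac genes *Ttr*, *Afp*, *Apoa1*, *Apoa2* and *Fabp1* were too low to be tested. Of the 10 calls, 5 were kept without WT replicate 1 and 6 without WT replicate 2, and the lost ones had adjusted p-values between 0.0844 and 0.203.

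Basement membrane genes changed in both directions. Type IV collagen, the network-forming collagen of this sheet, rose in both of its main chains. *Col4a1* stood at 73.4, 132 and 133 CPM in the clones and 39.6 and 48.3 CPM in WT (log2 fold change 1.36 ± 0.22, adjusted p = 0.0136), with D1 the lowest clone, and its call was lost without WT replicate 1 (adjusted p = 0.137) or 2 (0.0923). *Col4a2*, its head-to-head neighbour, stood at 35.8, 58.7 and 51.5 CPM against 12.3 and 15.3 CPM (1.83 ± 0.19, adjusted p = 0.00186). *Sparc*, a collagen-binding matrix protein, stood at 443, 512 and 433 CPM against 230 and 250 CPM (0.95 ± 0.09, adjusted p = 0.00149). *P4ha2* and *P4ha1*, subunits of the enzyme that hydroxylates collagen prolines, rose by 1.15 and 0.43 on the log2 scale, and *Tinagl1* by 1.20. The laminin chain *Lama5* fell from 205 and 283 CPM to 160, 133 and 170 CPM (-0.66 ± 0.14, adjusted p = 0.0314) and the heparan sulphate proteoglycan *Agrn* from 277 and 297 CPM to 197, 216 and 220 CPM (-0.44 ± 0.08, adjusted p = 0.0187). The endoderm laminin chains *Lama1*, *Lamb1* and *Lamc1* had log2 fold changes of 0.13, 0.37 and -0.29 and were not called. Of the 20 genes, all tested, 6 rose and 2 fell, with a median of 0.17. *Lama5* lost its call without WT replicate 2, and *Agrn* lost its call without WT replicate 1 or 2. *Col4a2* and *Sparc* kept their calls without either WT replicate, and the lost calls of the genes that rose had adjusted p-values between 0.0848 and 0.303.

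Simple keratins and claudins, the filaments and tight junction proteins of epithelia such as trophectoderm, were higher in *Ccnc* KO. Of 24 listed genes 22 were tested, and 10 rose and 0 fell, with a median log2 fold change of 0.56. *Plac8* had one of the smallest adjusted p-values of all genes, at 9.1, 9.67 and 8.77 CPM in the clones and 1.81 and 2.04 CPM in WT (log2 fold change 2.26 ± 0.16, adjusted p = 0.000338). *Krt19* stood at 8.2, 7.12 and 10.4 CPM against 1.92 and 2.58 CPM (1.94 ± 0.22, adjusted p = 0.00207). The partners *Krt18* and *Krt8*, which form 1 filament, stood at 13.8, 14.7 and 27.6 CPM against 5.53 and 5.16 CPM and at 14.9, 16.7 and 30.1 CPM against 7.29 and 8.23 CPM (1.81 ± 0.28 and 1.42 ± 0.27). H5 was highest for both, and both calls were lost without WT replicate 1 (adjusted p = 0.0972 and 0.180) or 2 (0.122 and 0.167). *Cldn6*, a claudin of early epithelia, stood at 46.1, 36.1 and 36.6 CPM against 19.6 and 19.5 CPM (1.02 ± 0.12, adjusted p = 0.003, or 0.0560 and 0.0508 without WT replicates 1 and 2). *Cldn7*, *Cldn4*, *Elf3* and *Tspan8* rose by 1.11, 0.50, 0.46 and 2.18, and *Eomes* is also in this list. The 3 trophectoderm markers *Cdx2*, *Gata3* and *Krt7* summed to between 1.65 and 3.99 CPM in *Ccnc* KO and between 0.955 and 1.26 CPM in WT, and edgeR called none of them. *Cdx2* stood at 0.391, 0.632 and 0.611 CPM against 0.697 and 0.361 CPM and *Gata3* at 0.33, 0.385 and 0.794 CPM against 0.239 and 0.232 CPM. *Krt7*, a simple keratin, stood at 0.931, 0.742 and 2.58 CPM against 0.327 and 0.361 CPM, highest in H5 and above WT in all 3 clones (log2 fold change 2.08 ± 0.56, adjusted p = 0.075, or 0.0107 by DESeq2), and *Elf5* was too low to be tested. Of the 10 calls, *Plac8* and *Krt19* were kept without either WT replicate, and the lost ones had adjusted p-values between 0.0508 and 0.324.

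**Figure D3:**
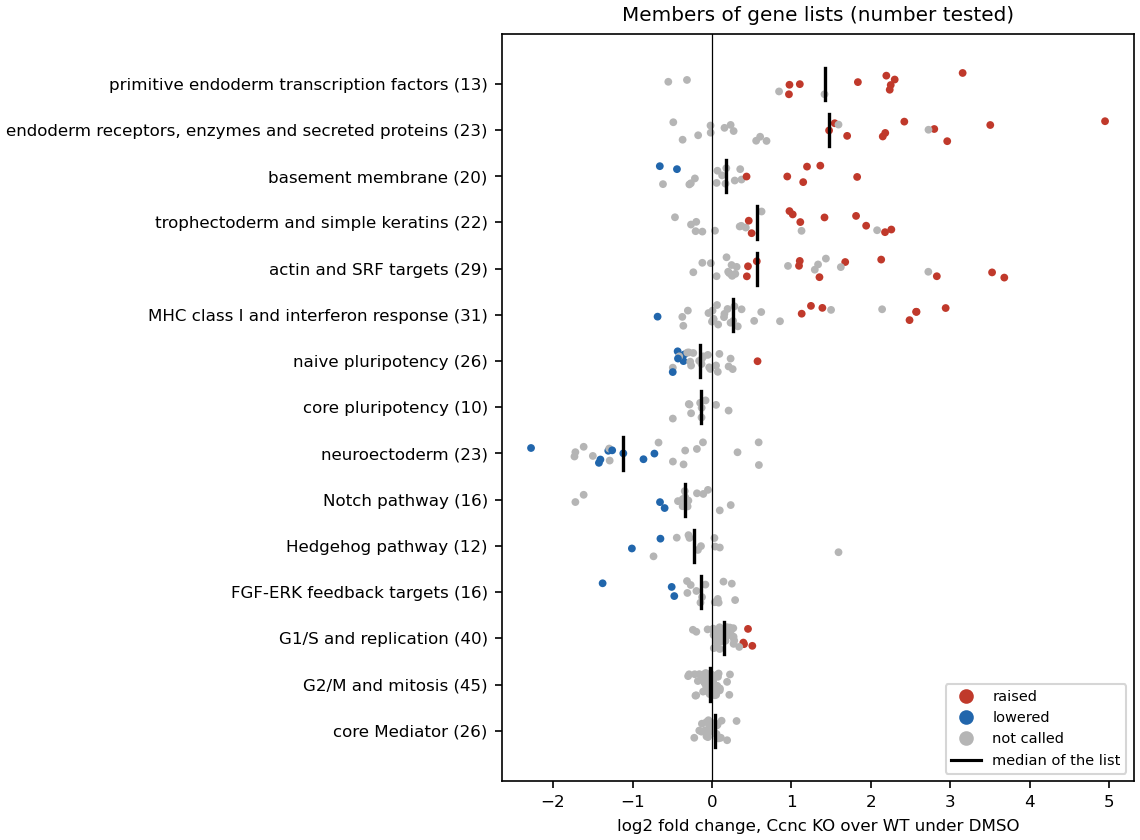
Log2 fold change, *Ccnc* KO over WT under DMSO, of each tested member of 15 gene lists, with the number tested in brackets and a black bar at the list's median. Points are red where raised, blue where lowered and grey where not called; the endoderm lists have medians of 1.42 and 1.47 (1.81 and 0.69 with the filter at 1 CPM), the neuroectoderm list -1.12 (-0.72 with that filter), and the G2/M and core Mediator lists hold no called gene.

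Actins and actin-binding proteins of muscle type, many of them targets of the serum response factor SRF, formed another group. Of 32 listed genes 29 were tested, and 11 rose and 0 fell, with a median log2 fold change of 0.56. Beside *Acta2*, the sarcomeric actins *Actc1* and *Acta1* stood at 0.871, 0.605 and 1.81 CPM against 0.0871 and 0.103 CPM and at 1.8, 1.46 and 4.93 CPM against 0.414 and 0.361 CPM, with adjusted p-values of 0.0187 and 0.0273. *Tagln*, transgelin of smooth muscle, stood at 12.2, 10.3 and 22.1 CPM against 4.03 and 5.34 CPM (1.68 ± 0.30, adjusted p = 0.0194). H5 was the highest clone for *Acta2*, *Actc1*, *Acta1* and *Tagln*, and D1 and G2 also lay above both WT libraries for each of them. *Col1a1*, a fibroblast marker, was also highest in H5 (2.16, 2.67 and 6.63 CPM against 2.35 and 2.01 CPM, not called), and the part of the fibroblast markers in these values was not tested. *Myl9*, a myosin light chain, stood at 13.8, 13.3 and 16.7 CPM against 5.79 and 7.85 CPM (1.104 ± 0.17, adjusted p = 0.00955), and *Fhl2*, *Pdlim4*, *Myl7*, *Tpm2*, *Tpm4* and *Tagln2* rose on the log2 scale by 2.13, 1.35, 1.09, 0.56, 0.45 and 0.44. The cytoplasmic actins *Actb* and *Actg1* and *Srf* itself had log2 fold changes of -0.12, 0.24 and -0.24 and were not called. *Acta2* was the only one of the 11 called without either WT replicate. The lost calls had adjusted p-values between 0.0998 and 0.272, and with the clone as a block *Acta1*, *Actc1* and *Fhl2* had 0.119, 0.0512 and 0.104. Among 20 listed targets of YAP and TEAD, which respond to cell shape and contact, 18 were tested and 3 rose: *Dkk1* (1.71), the YAP regulator *Amot* (1.20, at 11.7, 13.5 and 9.91 CPM against 4.4 and 5.81 CPM) and *F3* (0.66). *Thbs1*, another such target, was highest in H5 (2.46, 2.31 and 7.43 CPM against 0.936 and 1.78 CPM) and was not called (adjusted p = 0.123). Without WT replicate 1 none of the 3 kept its call (adjusted p of at least 0.105).

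Promoters of the actin genes are shown because SRF binds a known short motif, the CArG box, taken here in its strict form of CC and GG around a run of 6 bases that are each A or T, with no mismatch allowed. RefSeq promoters of GRCm38.p6, from 250 bases before to 50 after the gene start, were searched for it on both strands. It was found in 10 of the 25 promoters of the actin list (40.0%), in 8 of 104 promoters of genes raised more than 2-fold (7.69%), in 0 of 24 lowered more than 2-fold, and in 174 of 11116 promoters of tested genes (1.57%). The list was composed of genes known for this regulation, so its share is not independent of the motif. The 8 raised genes were *Acta1*, *Actc1*, *Cited1*, *Fhl2*, *Hopx*, *Myl7*, *Myl9* and *Rnf128*. Of these, *Acta1*, *Actc1*, *Fhl2*, *Myl7* and *Myl9* are also in the actin list, so the share among raised genes is not separate from it. At a share of 1.57% over tested genes, 0 of 24 says little. The promoter windows of *Acta1* (chr8:123894726-123895025, minus strand) and *Actc1* (chr2:114052826-114053125, minus strand) each hold 1 match, starting 73 and 47 bases before the gene start, here in capitals. The window of *Acta2* (chr19:34255324-34255623, minus strand) holds 0 strict matches and is not printed. Boxes with a mismatch, of the kind known at *Acta2*, were not searched for.
Acta1 promoter: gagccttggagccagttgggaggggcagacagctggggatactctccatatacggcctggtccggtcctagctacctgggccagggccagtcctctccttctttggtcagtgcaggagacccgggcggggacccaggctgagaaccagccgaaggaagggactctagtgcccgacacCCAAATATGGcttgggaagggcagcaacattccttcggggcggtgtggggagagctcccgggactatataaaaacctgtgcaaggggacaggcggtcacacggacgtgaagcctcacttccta
Actc1 promoter: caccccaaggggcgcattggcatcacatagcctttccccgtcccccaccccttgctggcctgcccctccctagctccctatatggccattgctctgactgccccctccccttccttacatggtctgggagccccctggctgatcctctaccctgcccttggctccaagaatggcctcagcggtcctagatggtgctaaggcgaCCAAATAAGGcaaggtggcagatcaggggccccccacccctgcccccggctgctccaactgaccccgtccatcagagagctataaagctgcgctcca

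The metallothioneins *Mt1* and *Mt2* were among the most abundant transcripts that rose more than 2-fold. They encode small cysteine-rich proteins that bind zinc and copper. *Mt2* stood at 525, 473 and 348 CPM in the clones and 168 and 204 CPM in WT (log2 fold change 1.27 ± 0.16, adjusted p = 0.00367). *Mt1* stood at 272, 205 and 178 CPM against 86.1 and 92.6 CPM (1.29 ± 0.15, adjusted p = 0.00304). Both were highest in D1 and lowest in H5, and no clone overlapped WT. Both calls were lost without WT replicate 1 (adjusted p = 0.0686 and 0.0624) and kept without WT replicate 2. *Mt3* had a log2 fold change of 1.06 and did not pass the test (adjusted p = 0.0611, or 0.0116 by DESeq2).

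*Mt1* and *Mt2* lie side by side on chromosome 8, at 94179082-94180327 and 94172664-94173568, both on the plus strand. Metal response elements, the sites of the zinc-sensing factor MTF1, were searched for as TGCACNC and TGCGCNC on both strands. The promoter window of *Mt1* (chr8:94178839-94179138) holds 3 and that of *Mt2* (chr8:94172368-94172667) 4, in capitals below. Such matches are common: 40.8% of the promoters of tested genes and 40.4% of those raised more than 2-fold hold at least 1.
Mt1 promoter: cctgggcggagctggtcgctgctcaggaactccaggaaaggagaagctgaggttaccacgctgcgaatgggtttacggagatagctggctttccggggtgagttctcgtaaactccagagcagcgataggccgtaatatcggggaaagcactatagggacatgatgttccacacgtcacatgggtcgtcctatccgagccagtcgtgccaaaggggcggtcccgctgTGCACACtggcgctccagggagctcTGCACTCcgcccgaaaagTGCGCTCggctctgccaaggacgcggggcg
Mt2 promoter: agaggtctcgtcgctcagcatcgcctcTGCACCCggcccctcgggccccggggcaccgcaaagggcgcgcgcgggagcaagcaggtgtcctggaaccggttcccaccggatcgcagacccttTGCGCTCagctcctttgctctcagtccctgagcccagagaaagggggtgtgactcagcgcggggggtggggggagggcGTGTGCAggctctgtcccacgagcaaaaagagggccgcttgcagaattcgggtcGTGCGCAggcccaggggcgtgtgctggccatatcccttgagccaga

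Genes of antigen presentation and the interferon response rose in part. Of 40 listed genes 31 were tested, and 7 rose and 1 fell. The median log2 fold change was 0.27. It was 0.51 with DESeq2, 0.50 over every member with at least 1 count and 0.22 over the members with a mean of at least 1 CPM. DESeq2 called 6 raised and 3 lowered. Levels of the listed genes summed to 735, 652 and 650 CPM in the clones and 730 and 723 CPM in WT. *B2m*, the light chain of MHC class I, stood at 11.2, 8.96 and 7.08 CPM in the clones and 3.42 and 3.48 CPM in WT (log2 fold change 1.39 ± 0.20, adjusted p = 0.00831). *Xaf1*, an interferon-induced pro-apoptotic gene, stood at 7.78, 8.85 and 6.61 CPM against 3.61 and 2.89 CPM (1.24 ± 0.18, adjusted p = 0.00899). The heavy chain genes *H2-K1* and *H2-D1*, with log2 fold changes of 0.32 and 0.20, were not called. The RNA sensor *Tlr3* and the interferon-induced *Oasl2*, *Gbp2b*, *Gbp2* and *Gbp4* rose by 2.94, 2.57, 2.57, 2.49 and 1.13 from low levels. *Gbp2b* stood at 1.68, 0.962 and 3.42 CPM against 0.283 and 0.413 CPM and *Gbp2* at 2.34, 1.1 and 3.68 CPM against 0.37 and 0.49 CPM, with H5 the highest clone for both. They are neighbouring near-copies whose reads could be shared. *Ifitm3*, a membrane protein of the same response, went the other way, from 151 and 145 CPM to 94.6, 91.9 and 89.98 CPM (-0.68 ± 0.07, adjusted p = 0.0018). None of the 7 genes that rose kept its call without WT replicate 1 or without WT replicate 2 (adjusted p between 0.0565 and 0.236), whereas *Ifitm3* kept it in both.

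The factors that hold mESCs pluripotent had small differences. None of the 10 core pluripotency genes was called by edgeR, whereas 4 had an unadjusted p-value under 0.05 and DESeq2 called 3, all lower. *Pou5f1* stood at 1154, 1400 and 1306 CPM in the clones and 1488 and 1328 CPM in WT, *Nanog* at 360, 388 and 269 CPM against 339 and 315 CPM, and *Sox2* at 414, 409 and 376 CPM against 438 and 448 CPM. The log2 fold changes of these 3 were -0.13 ± 0.10, 0.05 ± 0.13 and -0.15 ± 0.07. Of the 26 naive pluripotency genes, all tested, 5 fell and 1 rose, with a median of -0.15. The orphan receptor gene *Esrrb* fell from 707 and 706 CPM to 581, 559 and 525 CPM (-0.35 ± 0.07, adjusted p = 0.034), *Klf4* from 226 and 242 CPM to 178, 178 and 164 CPM (-0.43 ± 0.08, adjusted p = 0.0181), and *Fbxo15*, a target of *Pou5f1*, from 185 and 177 CPM to 133, 136 and 134 CPM (-0.43 ± 0.07, adjusted p = 0.0123). These shifts were of a fold well under 2, with narrow spread in both genotypes. *Klf2* and *Trim71* fell by 0.36 and 0.49 on the log2 scale. *Tbx3*, which belongs to the same network, rose from 68.8 and 65.7 CPM to 91.3, 115 and 93.7 CPM (0.57 ± 0.11, adjusted p = 0.0211). *Zfp42* had a log2 fold change of -0.49 and no call (adjusted p = 0.0675). None of the 6 calls was kept without WT replicate 1 or without WT replicate 2 (adjusted p between 0.0912 and 0.340), and without clone G2 none of the 5 lower genes was called. Of the 18 formative and primed genes tested of 20 listed, edgeR called *Otx2* and DESeq2 called 3 raised and 2 lowered. *Otx2* stood at 24, 24.3 and 26.1 CPM against 14.1 and 16.8 CPM (0.68 ± 0.11, adjusted p = 0.013, or 0.144 and 0.0576 without WT replicates 1 and 2). *Fgf5* lay at 0.27, 0.33 and 0.265 CPM against 0.0435 and 0.0516 CPM, too few counts in WT for a fold, without a call by edgeR (adjusted p = 0.0521).

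Neural genes moved in the opposite direction to the endoderm genes. Of 32 listed neuroectoderm genes 23 were tested, and 8 fell and 0 rose, with a median log2 fold change of -1.12, or -0.72 over the members with a mean of at least 1 CPM. Their levels summed to 105, 103 and 108 CPM in the clones and 184 and 172 CPM in WT. *Pax6*, a regulator of eye and forebrain, stood at 4.96, 4.31 and 4.82 CPM against 11.3 and 11.9 CPM (-1.31 ± 0.13, adjusted p = 0.0017). *Zic2*, a zinc finger factor of neural tissue and the primed epiblast, stood at 6.94, 8.05 and 8.1 CPM against 16.5 and 16.9 CPM (-1.12 ± 0.12, adjusted p = 0.00204). *Nrp2*, a receptor for semaphorins, stood at 21.2, 14.6 and 16.6 CPM against 49.5 and 42.9 CPM (-1.40 ± 0.14, adjusted p = 0.00166). These 3 were called under every alternative, with every clone clear of WT. The clones were closer together for *Pax6* and *Zic2* than for *Nrp2*. *Sox1*, the defining factor of early neuroectoderm, fell from 16.3 and 15.3 CPM to 7.72, 9.56 and 11.3 CPM (-0.72 ± 0.15, adjusted p = 0.0343), and *Meis1* from 2.79 and 3.02 CPM to 1.05, 0.879 and 1.28 CPM (-1.42 ± 0.23, adjusted p = 0.0121). *Zeb2* fell by 1.26 on the log2 scale, and *Gad1* is also in this list. *Sox3* lay above WT without a call (log2 fold change 0.59, adjusted p = 0.0654), and *Nes*, the neural filament nestin, had -0.19. Without WT replicate 1 and 2, 3 and 4 of the 8 calls were kept, and the lost ones had adjusted p-values between 0.0833 and 0.352.

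*Ntn1*, the secreted guidance cue netrin, fell from 154 and 144 CPM in WT to 48.3, 58.1 and 60.9 CPM in the clones (-1.42 ± 0.10, adjusted p = 0.000338). *Grhl3*, a factor of surface ectoderm, fell from 36.1 and 44.9 CPM to 19.8, 16.4 and 16.6 CPM (-1.20 ± 0.12, adjusted p = 0.0017). Both were called under every alternative. *Ptch1*, the receptor and target of Hedgehog, fell from 69.4 and 78.9 CPM to 39.7, 33.9 and 37 CPM (-1.01 ± 0.09, adjusted p = 0.00149), and *Gli1*, another Hedgehog target, from 56.7 and 59.5 CPM to 41.6, 36.5 and 33.2 CPM (-0.65 ± 0.10, adjusted p = 0.0104, or 0.0833 and 0.131 without WT replicates 1 and 2). Of 12 tested Hedgehog genes edgeR called these 2, and DESeq2 called 2 lowered and 1 raised. Of 16 tested Notch genes the ligands *Jag1* and *Jag2* fell, by 0.65 and 0.60 on the log2 scale, and 0 rose. *Jag1* lost its call without either WT replicate (adjusted p = 0.111 and 0.131) and *Jag2* without WT replicate 2 (0.214). None of the 17 tested Nodal and BMP genes was called by edgeR, with 6 lower at an unadjusted p-value under 0.05 and 1 called by DESeq2.

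Wnt targets, for which the kinase module is known as a co-activator, changed in both directions. *Sp5*, a direct target that encodes a feedback repressor, fell from 9.23 and 8.77 CPM to 3.09, 2.75 and 2.95 CPM (-1.62 ± 0.15, adjusted p = 0.00149), with very small spread within each genotype. *Notum*, the secreted Wnt inhibitor, fell from 62.9 and 59.1 CPM to 38.9, 44.1 and 38.3 CPM (-0.60 ± 0.09, adjusted p = 0.00947, or 0.102 and 0.0730 without WT replicates 1 and 2). *Wls*, which Wnt-secreting cells need, rose by 1.82, *Dkk1*, an inhibitor, by 1.71 and *Lgr5*, the receptor for R-spondin, by 1.46 on the log2 scale. Of these 3, *Wls* lost its call without WT replicate 2 (adjusted p = 0.0736), *Dkk1* without WT replicate 1 (0.182) and *Lgr5* without WT replicate 1 (0.144) or 2 (0.132). *Axin2*, the usual reporter of the pathway, stood at 29, 29.3 and 28.2 CPM against 28 and 25.8 CPM and was not called (log2 fold change 0.10 ± 0.09).

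*Egr1*, an immediate early gene named in the study, stood at 14.1, 9.81 and 9.4 CPM in the clones and 30.2 and 27.2 CPM in WT (log2 fold change -1.38 ± 0.16, adjusted p = 0.003), and no alternative ended its call. It was the 1 gene called by edgeR of 19 tested of 22 listed immediate early genes, with a median of -0.02. *Fos*, *Jun* and *Junb* had log2 fold changes of -0.15, 0.18 and -0.28, and *Atf3* had 0.75 (adjusted p = 0.0665). Among 16 feedback targets of FGF and ERK signalling, *Dusp5* and *Il17rd* fell with *Egr1*, by 0.51 and 0.47 on the log2 scale. Both lost the call without WT replicate 1 (adjusted p = 0.183 and 0.0745) or 2 (0.255 and 0.266). *Fgf4*, *Dusp6* and *Spry4* had 0.07, 0.25 and -0.27 and were not called by edgeR. Of the 16 feedback targets, 7 were lower and 1 higher at an unadjusted p-value under 0.05, and DESeq2 called 6 lowered and 0 raised.

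Genes of the cell cycle and of replication stress, the context of the study, showed small differences. Raised genes made up 10% of the G1/S and replication list, beside 2.09% of all tested genes. They made up 4.76% of the ATR-CHK1 checkpoint list and 3.7% of the R-loop removal list. With 1 call each, these last 2 lists are not set apart from the share over all tested genes. *Cdc25a*, the phosphatase that activates S-phase kinases, stood at 181, 201 and 193 CPM in the clones and 188 and 170 CPM in WT (log2 fold change 0.10 ± 0.08, adjusted p = 0.553). Of 40 genes of G1/S and replication, 4 rose and 0 fell, and 37 had a fold change above 0, with a median of 0.16. *Rrm2*, a subunit of ribonucleotide reductase, stood at 507, 511 and 493 CPM against 368 and 341 CPM (0.51 ± 0.07, adjusted p = 0.00826). *Ccne2* and *Pcna* rose by 0.40 and 0.39 on the log2 scale. None of the 4 calls was kept without WT replicate 1 or 2 (adjusted p between 0.0678 and 0.343). None of 45 G2/M and mitosis genes was called by edgeR or DESeq2, and 1 had an unadjusted p-value under 0.05 (median -0.02). *Chek1*, the kinase downstream of ATR, rose from 88.5 and 85.9 CPM to 107, 110 and 109 CPM (0.32 ± 0.07, adjusted p = 0.0437) as the 1 gene called by edgeR, and by DESeq2, of 21 genes of the ATR-CHK1 checkpoint, and was lost with the clone as a block (adjusted p = 0.0523) and without WT replicate 1 or 2 (0.230 and 0.318). *Rnaseh2b*, a subunit of RNase H2, which removes RNA from DNA:RNA hybrids, rose by 0.38 (adjusted p = 0.0426, or 0.238 and 0.297 without WT replicates 1 and 2) and was the 1 gene called by edgeR of 27 genes of R-loop removal, where DESeq2 called 2, both higher.

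The glycolysis and hypoxia list had 4 genes that rose (*Aldoa* 0.53, *Tpi1* 0.44, *Ndufa4l2* 2.11 and *P4ha1*) and 2 that fell (*Hk2* -0.43 and *Pdk1* -0.42) of 25. These were 16% and 8% of the list, beside 2.09% and 1.63% of all tested genes. The p53, ATF4, histone, imprinted and ER chaperone lists held fewer calls. *Bbc3* of 24 p53 targets, *Pycr1* and *Trib3* of 25 ATF4 targets, *Hist3h2ba* of 26 tested replication-dependent histones and *Meg3* of 31 tested imprinted genes fell, with log2 fold changes of -0.67, -0.68, -0.37, -1.11 and -0.66. *Dio3*, the thyroid hormone deiodinase and an imprinted gene, rose by 1.495. None of these calls was kept without WT replicate 1 or without WT replicate 2 (adjusted p between 0.0745 and 0.303). DESeq2 called 4 p53 targets and 4 ATF4 targets, all lower. None of 18 ER chaperones was called by edgeR, with 3 at an unadjusted p-value under 0.05 and 1 called by DESeq2.

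The calls favour genes on which the clones lie close together, so the spread among clones over called genes is a description. All 3 clones lay more than 2-fold above the WT mean for 101 of the 136 genes raised more than 2-fold, and more than 2-fold below it for 24 of the 35 lowered. The range over the clones had a median of 0.53 on the log2 scale for both sets and exceeded 1 for 21 raised and 4 lowered genes. Of the 136, G2 was the highest clone for 67, D1 for 36 and H5 for 33. H5 lay more than 2-fold above every other library for 6 genes with at least 1 CPM, which were *Acta1*, *Krt7*, *Thbs1*, *Col1a1*, *Gbp2b* and *H19*, an imprinted non-coding RNA, at 3.94, 11 and 39.4 CPM against 14.8 and 15.3 CPM and not called. It was also more than 2-fold below every other library for *Adgrv1* (19.1, 19.2 and 8.91 CPM against 21 and 19.5 CPM). By the same measure WT replicate 1 stood alone above for 5 genes and below for 9, and WT replicate 2 for 2 and 3. These counts do not set H5 apart from a WT library. D1 lay more than 2-fold below every other library for 22 genes and above for 6, most of them annotated as pseudogenes or predicted genes. Its mitochondrially encoded transcripts were higher, with a median log2 difference from the WT mean of 0.62 over 16 genes, against 0.18 in G2, 0.04 in H5 and 0.15 to either side in the WT libraries. *Cyp26a1*, which degrades retinoic acid, was highest in G2 (1.14, 2.5 and 1.22 CPM against 0.414 and 0.155 CPM).

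**Figure D4:**
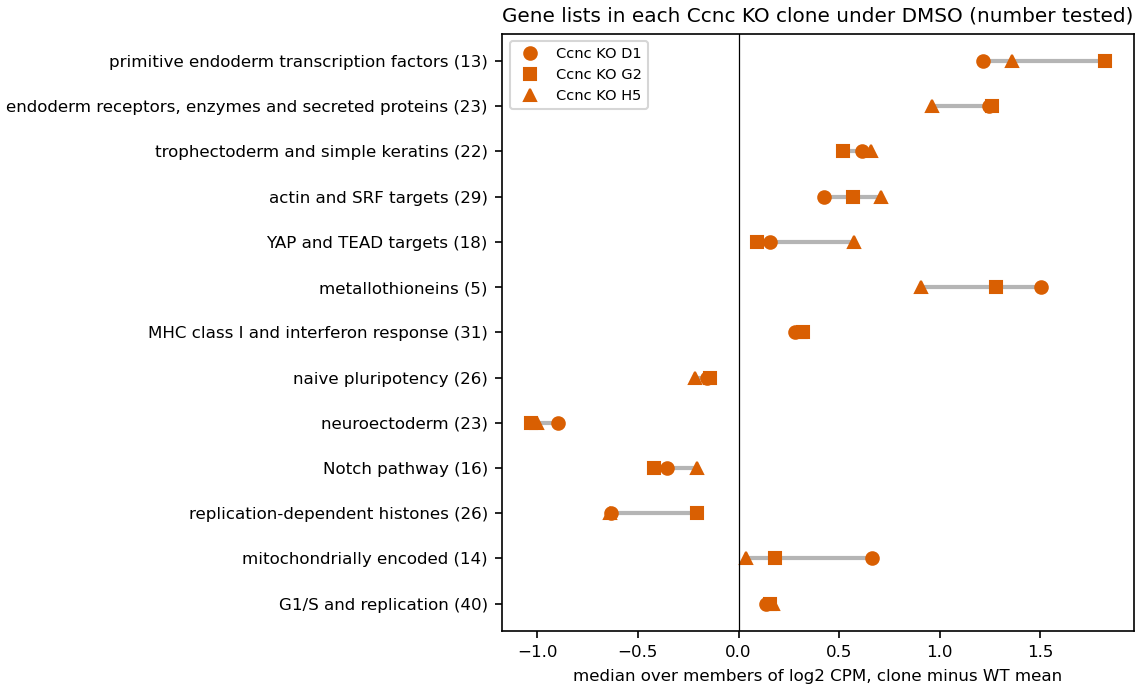
Median over the tested members of each list (number in brackets) of the log2 CPM of 1 clone minus the WT mean, for clones D1, G2 and H5. The clones lie on the same side of 0 for each list shown, spreading most for the primitive endoderm factors, the metallothioneins and the mitochondrially encoded genes.

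No chromosome other than X stood out among the nuclear chromosomes. Over genes with at least 1 CPM, the median log2 difference from WT lay between -0.04 and 0.03 for each autosome in each clone, and at 0.10, 0.08 and 0.06 in D1, G2 and H5 over 513 X-linked genes. On X, 27 of these genes rose and 4 fell, beside 2.39% raised and 1.99% lowered of the 13629 genes at this level on all chromosomes. *Capn6*, *Nrk* and *Amot* are among the X-linked genes that rose. Of the genes called with a change over 2-fold, 11 pairs stood next to each other among tested genes and changed in the same direction, 10 upward and 1 downward. Among them were the head-to-head *Col4a1* (chr8:11198423-11312826) and *Col4a2* (chr8:11312805-11449287), *Krt8* (chr15:101996698-102004482) and *Krt18* (chr15:102028180-102032027), *Mt2* and *Mt1*, and the 2 lowered genes *Sp5* (chr2:70474923-70477729) and *Gad1* (chr2:70553072-70602014). *Foxq1* and *Foxf2*, *Gbp2b* and *Gbp2*, *Serpinb9* and *Serpinb9b*, *Pdlim4* and *P4ha2*, *Slc13a5* and *Xaf1*, *Mdfic* and *Tfec*, and *Gm30692* and *Tcim* made up the rest. *Mdfic* and *Tfec* lie 1031203 bases apart, and *Gbp2b* and *Gbp2* are near-copies. No such count of pairs over all tested genes is given.

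The libraries of the same clones and WT cells under ATRi were not used to select these genes. They come from the same lines, so a lasting difference between lines would recur in them whatever its source. Levels there were normalized apart from those under DMSO, so KO and WT are compared within each treatment. Of the 136 genes raised more than 2-fold under DMSO, 126 had all 3 clones above both WT libraries under ATRi, where 17.6% of all tested genes did. Of the 35 lowered more than 2-fold, 32 had all 3 clones below both, where 15.6% of all tested genes did. The median log2 difference of the raised genes was 1.51 under DMSO and 1.42 under ATRi against WT replicate 1, or 1.22 against both WT replicates. For the lowered genes it was -1.36, -1.08 and -1.11. The study left out WT replicate 2 under ATRi, and that library stood nearer to the clones for some genes. *Mt1* was at 173, 167 and 165 CPM in the clones and 73 and 165 CPM in WT under ATRi, so that replicate 2 reached the clones. *Dab2* was at 31.5, 43.8 and 28.5 CPM against 5.0 and 9.71 CPM, *Acta2* at 17.5, 15.9 and 32.5 CPM against 1.59 and 3.95 CPM, and *Col4a1* at 102, 141 and 122 CPM against 43.5 and 43.9 CPM. *Ntn1*, *Egr1* and *Pax6* were lower in the clones again, at 58, 58.5 and 61.7 CPM against 132 and 115 CPM, 15.3, 12.5 and 10.9 CPM against 32.6 and 38.2 CPM and 3.92, 3.94 and 4.81 CPM against 11.2 and 11.8 CPM.

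**Figure D5:**
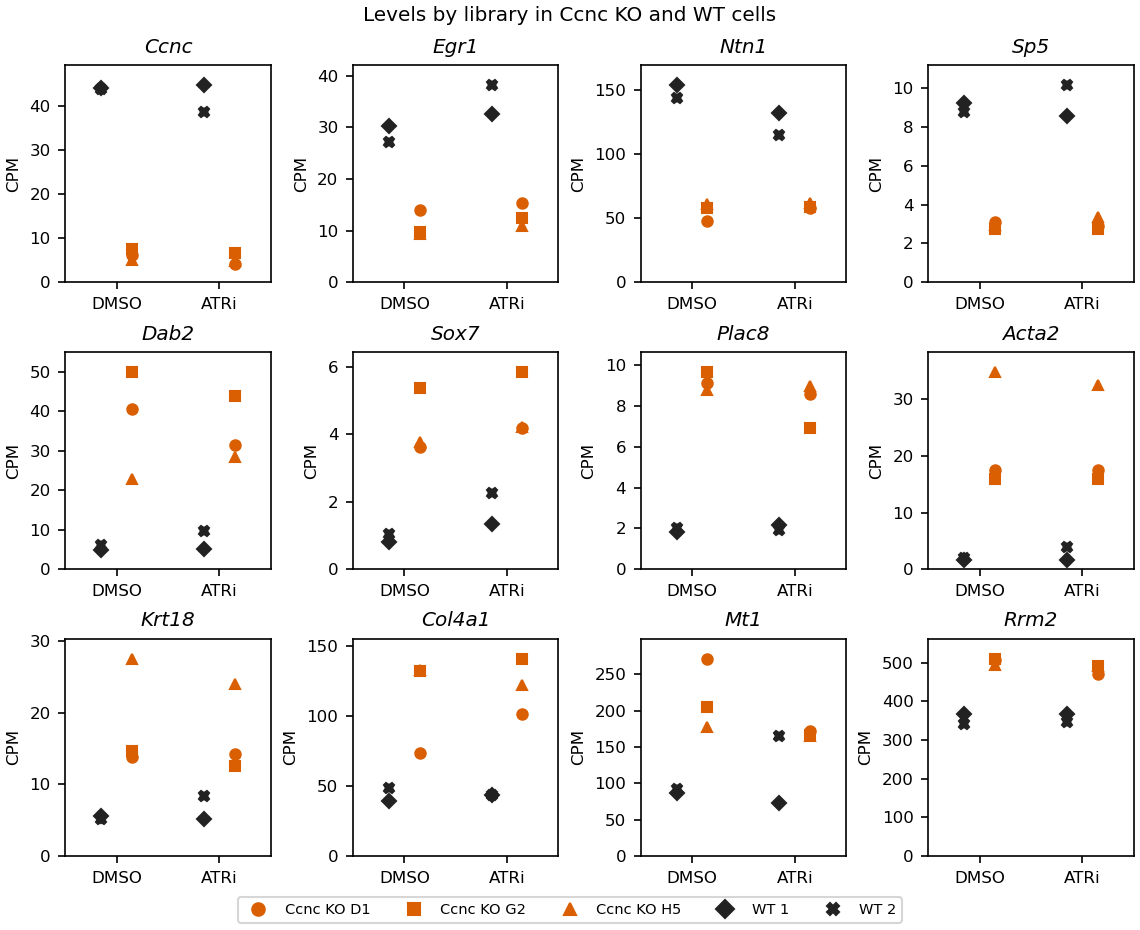
Level (CPM, linear axes from 0) of 12 genes in clones D1, G2 and H5 (orange) and WT replicates 1 and 2 (black) under DMSO and under ATRi. The clones lie on the same side of both WT libraries under both treatments except for *Mt1*, where WT replicate 2 reaches 165 CPM under ATRi.

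Loss of the kinase CDK8, Cyclin C's partner, was measured in 3 other clones with the same WT cells sequenced again, so that the 2 comparisons share their controls and are given side by side only. In *Cdk8* KO under DMSO, 3 genes rose and 2 fell of 16904 tested. *Ccnc* had a log2 fold change of 0.05 there (adjusted p = 0.84). For *Ntn1* the values were -1.42 in *Ccnc* KO and -1.05 in *Cdk8* KO (adjusted p = 0.00548), for *Col4a1* 1.36 and 2.30 (0.00185), for *Col4a2* 1.83 and 2.59 (0.00224), and for *P4ha2* 1.15 and 1.62 (0.0414). *Dab2*, *Srgn*, *Egr1* and *Ptch1* had 3.37, 4.16, -1.43 and -0.78 in *Cdk8* KO, each with an adjusted p of 0.0541, and *Acta2* had 5.33 (0.266). The *Cdk8* KO clones B9, C8 and H4 stood far apart for *Acta2*, at 4.67, 41.5 and 196 CPM against 1.57 and 2.51 CPM in WT, so that H4 carries most of that mean. *Mt1*, *Mt2* and *Frem2* had 0.64, 0.38 and -0.36 there, with adjusted p-values of 0.13, 0.492 and 0.867. The *Cdk8* KO clones B9, C8 and H4 also stood apart for *Krt18*, at 10.8, 23.7 and 104 CPM. They were closer for *Col4a1*, at 186, 227 and 197 CPM. What part the spread between clones had in the number of *Cdk8* KO calls was not tested. Whether the knockouts differ for the genes named here was not tested either.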

How the data were processed

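Poly(A) RNA of *Ccnc* KO and WT mESCs under DMSO was read as strand-specific single ends. The authors trimmed reads (Trimmomatic 0.38), aligned them to GRCm38.p6 (HISAT2 2.1.0) and counted them per gene (featureCounts 2.0.1, versions per the submitters' processing notes), with reads marked as duplicates ignored. The counts were deposited per lane and unnormalized. Reads shared between similar genes cannot be restored from such counts. The rlog tables were not used here.

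The 2 lanes of each library were summed. Genes passing filterByExpr were tested by edgeR 4.0.16's quasi-likelihood test in R 4.3.3 with TMM normalization, KO against WT over the 5 libraries, and called at an adjusted p-value (Benjamini-Hochberg) under 0.05. CPM on the log2 scale used a prior count of 2. The study names DESeq2 without a formula, so DESeq2 1.42.0 was an alternative, as were limma 3.58.1 with the clone as a block, a trend over GC content and length removed with mgcv 1.9.3, other filters and normalization, wider sets of libraries and leaving out each library. Depths from 33540088 to 48651569 counts leave spread between libraries, not counting, as the main error for genes above a few CPM, and the p-values measure the spread between these clones and WT replicates only. All 55536 identifiers matched GENCODE M21.

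Named genes were *Ccnc*, the kinase module, *Egr1* and *Cdc25a*, the 10 raised and 10 lowered with the largest changes over 2-fold (at least 1 CPM in the higher group), the 5 called genes with the highest levels in each direction, and up to 4 called members of each list. Other genes were chosen after their values were seen. The lists, the rule and the comparison were chosen with earlier results of these data known, and some list genes had been called by the study in these libraries. Some genes of the lists are not reported here by name.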

Additional observations from a re-analysis of the deposited data

How the results depend on the processing

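The counts depended most on the WT libraries. Leaving out each library in turn gave between 29 and 661 raised and 31 and 453 lowered genes, and between 23 and 219 raised and 17 and 57 lowered more than 2-fold. The lowest raised counts came without WT replicate 1. Testing every gene with at least 1 count gave 942 raised and 764 lowered, and 295 and 79 with more than 2-fold. DESeq2 called 505 lowered. Group means over 9 libraries gave 564 and 462, and 54 lowered more than 2-fold. RLE normalization, the filter at 1 CPM and the fit over 10 libraries kept the counts within 1.5 times. Of the 171 genes changed more than 2-fold, 150 were called so by DESeq2, 36 without WT replicate 1 and 49 without WT replicate 2.

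Clones and WT replicates share no number, so no pairing of KO with WT exists, but the DMSO and ATRi libraries of 1 clone come from 1 cell line. With the clone or replicate as a block over 9 libraries, 483 genes were raised and 439 lowered. Among the named genes, the block ended the calls of *Acta1*, *Actc1*, *Aqp8*, *Ccne2*, *Chek1*, *Cldn4*, *Fhl2*, *Gbp2*, *Gbp2b*, *Ndufa4l2* and *Tspan8*.

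The order of settings below is every gene with at least 1 count, the filter at 1 CPM, DESeq2, 9 libraries, 10 libraries and the block. The endoderm receptor median of 1.47 became 0.79, 0.69, 0.86, 0.78, 1.07 and 0.73, and the neuroectoderm median of -1.12 became -0.80, -0.72, -0.81, -0.99, -0.9995 and -1.01. The primitive endoderm factor median became 1.81 with the filter at 1 CPM. For actin genes the first 3 settings gave 0.75, 0.38 and 0.75, for MHC and interferon genes 0.50, 0.22 and 0.51, and for trophectoderm genes the first and DESeq2 gave 0.65 and 0.66. With the GC and length trend removed, the naive median became -0.21 and the MHC median 0.30. Naive genes lowered numbered 10 in the first setting, 8 with DESeq2, 9 libraries or the block, and 1 over 10 libraries. The first setting gave 16 neuroectoderm genes lowered and 18 actin genes raised, and 10 libraries gave 5 actin and 6 trophectoderm genes raised. The causes were not tested.

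Without each library in turn, raised members ranged from 1 to 9 (primitive endoderm factors), 5 to 12 (endoderm receptors), 2 to 6 (basement membrane), 2 to 10 (trophectoderm), 1 to 13 (actin) and 0 to 8 (MHC and interferon), and lowered members from 0 to 8 (naive) and 3 to 8 (neuroectoderm). Medians ranged from 0.99 to 1.52 (endoderm receptors), -0.21 to -0.14 (naive), -1.16 to -0.91 (neuroectoderm), 0.51 to 0.67 (trophectoderm) and 0.22 to 0.29 (MHC and interferon). Among the named genes and markers, signs changed only for genes with no call: without each library in turn *Cdx2* ranged from -0.35 to 0.59, *Nanog* from -0.058 to 0.19, *Pdgfrb* from -0.41 to 0.080 and *H19* from -1.01 to 0.76, and *H19* was at -0.19 with the block.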
